A study of Zea mays with 10 samples.

Results

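Messenger RNA of male germ cells isolated from maize anthers at prophase I of meiosis was compared between the inbred line B73 and the male-sterile mutant ms28. The comparison took the 4 germ cell libraries of the series out of 10, 2 for each genotype (replicates 1 and 2), and all 22786 features of the germ cell expression table, also those that the table of whole anthers does not list. Of these features 22760 were gene models and 26 were precursor loci of microRNAs (miRNAs). The other 6 libraries are of whole anthers: 4 at prophase I, of both genotypes, used here as a second measurement of the same features, and 2 of B73 before meiosis, not used here. Per the labels' protocols, plants of either line were raised outdoors or under glass. Which of these a library came from, how the germ cells were isolated and whether ms28 was bred into B73 are not given in the sources used here. Effects of the mutation and of other differences between the lines cannot be told apart. The labels leave unsaid whether the 2 libraries of a genotype were made from different plants, so p-values here reflect the spread of these libraries, possibly technical.

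Male germ cells at prophase I are the pollen mother cells, in which homologous chromosomes pair and recombine while the surrounding tapetum feeds them. Grass anthers make large amounts of phased small RNAs (phasiRNAs), cut stepwise from long non-coding precursors after cleavage by a miRNA. Precursors cut by miR2118 give the shorter class, abundant around the start of meiosis, and precursors cut by miR2275 give the longer class. The series asks how the shorter class acts on its target mRNAs. The gene mutated in ms28 is known to encode an ARGONAUTE, one of the proteins that carry small RNAs to their targets.

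The values were TPM, the share of a library's reads scaled by transcript length. The median feature had 6.0 and 6.60 TPM in B73, and 6.92 and 6.86 TPM in ms28. TPM keeps no sequencing depth, so depth is unknown and no counting interval is given. Across the 18840 features tested, those that reached 1 TPM in 2 or more of the 4 libraries, the log2(TPM + 1) difference between libraries of a genotype had an SD of 0.505 in B73 and 0.363 in ms28. The difference between the genotype means had an SD of 0.763. No ID of a gene model was paired with a gene name by the tables used here, so lists of meiosis, tapetum and small RNA genes matched 0 of the 22760 gene models, and neither the purity of the germ cells nor the mutated gene could be checked by name.

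In ms28 germ cells 2489 features rose and 1586 fell against B73, out of 18840 tested. These are 13.2% and 8.42% of the tested features, and 21.6% together (limma-trend on log2(TPM + 1), Benjamini-Hochberg adjusted p under 0.05, n = 2 per genotype). The features that rose carried 6.25 and 7.27% of all TPM in the B73 libraries and 16.7 and 15.5% in the ms28 libraries. Those that fell carried 11.1 and 12.04% against 4.71 and 5.58%. These features were called on the same libraries, so the direction of these shares was set by the choice. In bulk RNA of this kind, fewer cells of a type and less RNA per cell cannot be told apart. Most changes were moderate: the median log2 change was 1.13 among features that rose and -1.11 among those that fell. Changes past 2 on the log2 scale were seen in 231 features that rose and 139 that fell, 1.23% and 0.738% of all tested and 1.96% together. Changes past 4 were seen in 13 and 6. Both ms28 libraries lay above both B73 libraries in 36.9% of tested features and below both in 29.3%.

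The number of calls fell most when an ms28 library was left out, for a cause that was not tested. It was 909 without ms28 replicate 1 and 1600 without ms28 replicate 2. It was 3599 without B73 replicate 1 and 4480 without B73 replicate 2. Called in the same direction in all 4 of these fits, and also after centring on the median feature and after quantile normalization, were 541 features that rose and 222 that fell. The split between directions moved with the scaling: 61.1% of calls were higher in ms28 with TPM as deposited, 53.2% with centring and 50.3% with quantile normalization.

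**Figure D1:**
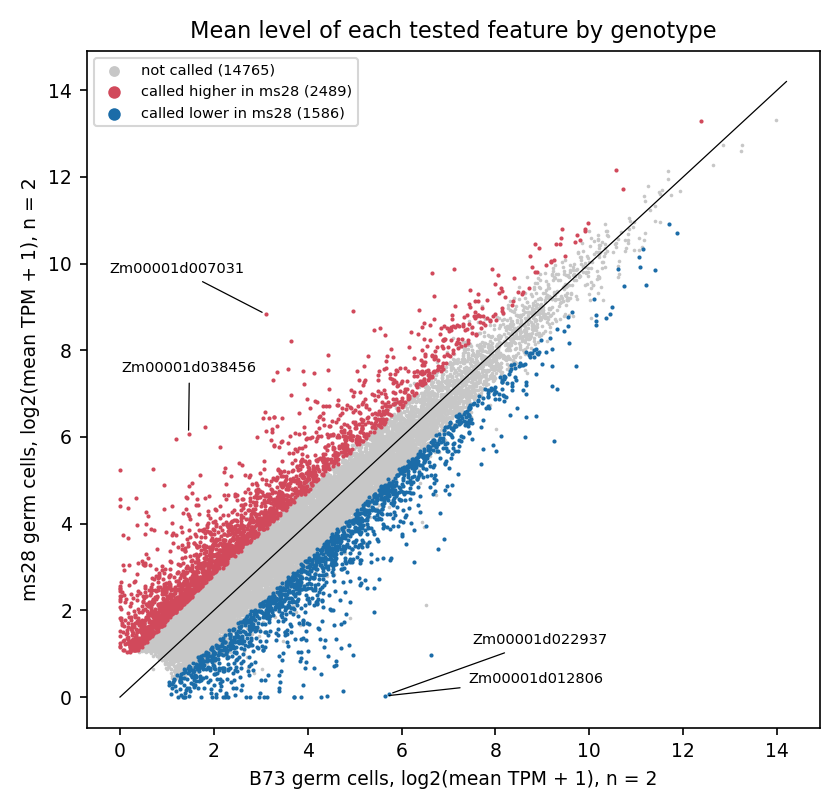
Mean level of each of the 18840 tested features in B73 (x axis) and ms28 germ cells (y axis), both as log2(mean TPM + 1) of 2 libraries, with the line of equal levels. Red points are the 2489 features called higher in ms28, blue points the 1586 called lower, and the 4 labelled gene models lie far from the line.

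The gene model with the smallest adjusted p was Zm00001d007031. It read 6.62 and 8.62 TPM in the B73 libraries and 464 and 445 TPM in the ms28 libraries, so the genotypes lay far apart. Its mean rose from 7.62 ± 1.41 to 455 ± 13.4 TPM (SD, n = 2), 59.7-fold, with a log2 change of 5.73 (SE 0.22, adjusted p = 3.33e-05 in the limma fit). Zm00001d038456 read 1.71 and 1.80 TPM in B73 and 70.4 and 61.2 TPM in ms28. It rose 37.5-fold, with a log2 change of 4.60 (SE 0.24, adjusted p = 5.5e-05 in limma).

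The gene models that fell with the smallest adjusted p were at or near 0 in ms28. Zm00001d012806 read 47.5 and 50.7 TPM in B73, was listed at 0 in ms28 replicate 1 and read 0.0351 TPM in ms28 replicate 2. Zm00001d022937 read 58.6 and 45.2 TPM in B73, 0.0904 TPM in ms28 replicate 1 and was listed at 0 in replicate 2. Their log2 changes of -5.62 and -5.65 (SE 0.24 and 0.26, adjusted p = 4.52e-05 and 4.93e-05 in limma) are limited by the added 1 TPM. With 0.1 TPM added they were -8.73 and -8.55. Both gene models passed the filter only through the B73 libraries, where they were high. With no filter, their adjusted p in limma was 0.000171 each.

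Some features were listed at 0 in both libraries of 1 genotype and stood at 1 TPM or more in both of the other. There were 17 such features present in ms28 alone, with ms28 means from 1.22 to 36.9 TPM and a median of 3.81 TPM. Another 19 were present in B73 alone, with B73 means from 1.35 to 18.4 TPM and a median of 3.93 TPM. Those with at least 10 TPM in both libraries are named here after their values were seen. Of the ms28 set, Zm00001d024517 read 44.8 and 29.0 TPM, Zm00001d003610 read 21.9 and 23.5 TPM, and Zm00001d013111 read 17.9 and 22.6 TPM. Of the B73 set, Zm00001d012907 read 17.5 and 19.3 TPM, Zm00001d003452 read 10.4 and 16.8 TPM, and Zm00001d025140 read 12.5 and 11.5 TPM. These sets were chosen on the germ cell values, so no test of those values is given.

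The whole anther libraries were not used to choose these features. Of the 17 features present in ms28 germ cells alone, 15 were in the anther table. In all 15 the ms28 anther values lay above the B73 anther values, and 14 were listed at 0 in both B73 anther libraries. Of the 19 present in B73 germ cells alone, 18 were in the anther table. In all 18 the ms28 anther values lay below the B73 anther values, and 13 were listed at 0 in both ms28 anther libraries. Over the 18731 tested features that are also in the anther table, 3.3% lay above and 69.6% below in this way, beside a median log2 change of -0.48 over the same features. After centring of the anther libraries on their median feature the shares over all these features were 35.5% and 14.3%. The counts of 15 and 18 are for TPM as deposited and were not taken again after centring. In anthers Zm00001d024517 read 4.46 and 5.51 TPM in ms28, below its germ cell values, and Zm00001d003452 read 20.1 and 18.0 TPM in B73, above its germ cell values. The germ cell and anther tables list different features and may have been filtered separately. Levels were not tested across them.

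**Figure D2:**
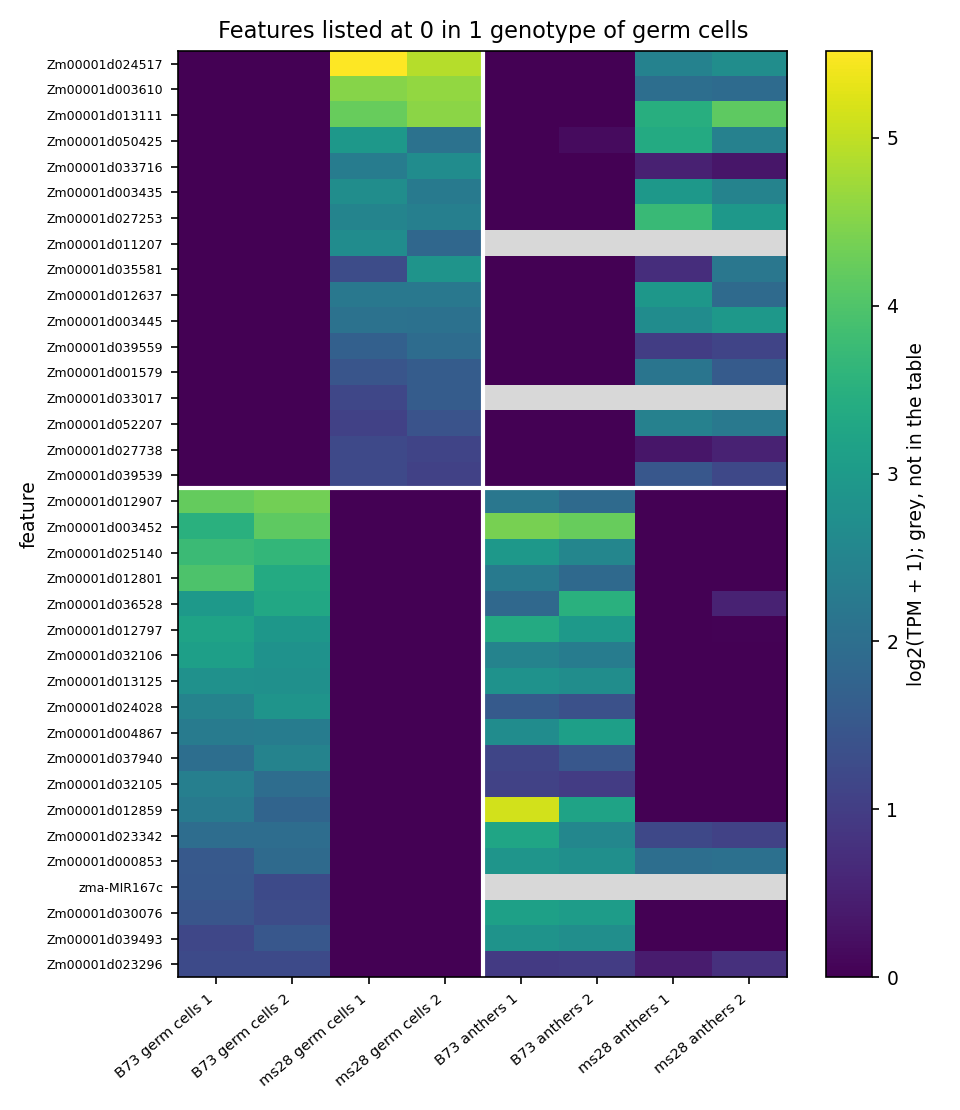
Level, as log2(TPM + 1), of the 17 features listed at 0 in both B73 germ cell libraries (above the white line) and the 19 listed at 0 in those of ms28 (below it), one per row, in the 4 germ cell and the 4 anther libraries. Grey cells mark 3 features that the anther table does not list; in the other rows the genotype that lacks the feature in germ cells is also the lower one in anthers.

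For the larger set of features past 2 on the log2 scale in germ cells, the anther values were more mixed. Of the 230 that rose by this much and are in the anther table, 79 (34.3%) were higher in both ms28 anther libraries and 49 (21.3%) were lower in both. Over all 18731 features these shares were 3.3% and 69.6%. Of the 138 that fell by this much, 103 (74.6%) were lower in both, near the 69.6% of all features, and 3 were higher in both. Their median anther log2 changes were 0.08 and -1.26, beside -0.48 for all features. With centred anther libraries, 66.5% of the first group were higher in both and 3.04% lower. Of the second, 7.25% were higher and 52.9% lower, beside 35.5% and 14.3% of all features. Of the named gene models, Zm00001d007031 read 48.2 and 113 TPM in B73 anthers and 241 and 322 TPM in ms28 anthers. Zm00001d038456 read 5.90 and 14.7 TPM in B73 anthers and 33.5 and 54.5 TPM in ms28 anthers. Both were thus higher in both ms28 anther libraries. Zm00001d012806 read 75.2 and 35.8 TPM in B73 anthers and 0 and 0.03 TPM in ms28 anthers, and Zm00001d022937 read 13.2 and 9.93 TPM against 0 and 0.06 TPM. These last gene models thus read at or near 0 in ms28 in both kinds of sample.

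**Figure D3:**
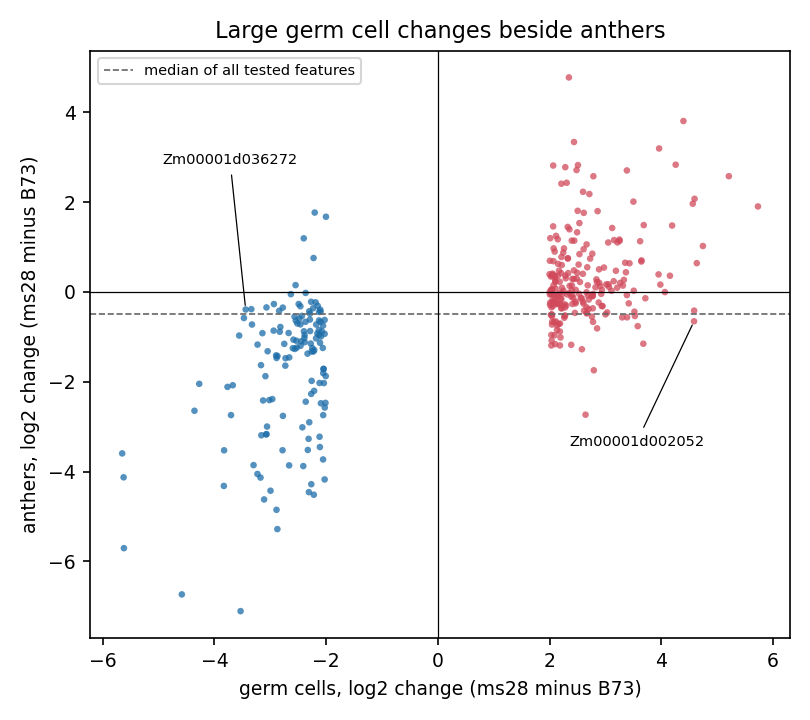
Log2 change of ms28 against B73 in germ cells (x axis) and in whole anthers (y axis), both on the log2(TPM + 1) scale, for the 230 features (red) and 138 features (blue) past 2 in germ cells that both tables list. The dashed line is the median anther change of all tested features (-0.48); most blue points lie under it, while red points lie on both sides of 0.

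Whether isolated germ cells and whole anthers differed in their response to the mutant genotype was tested as an interaction in a fit of all 8 prophase I libraries, over 20892 features. For each direction the gene model with the smallest adjusted p was chosen. The choice also required non-overlapping germ cell values in that direction and a germ cell mean of at least 10 TPM. A germ cell change was thus set by the choice. Zm00001d002052 rose in germ cells from 0.929 and 0.320 TPM to 39.0 and 35.8 TPM. It read 30.7 and 34.3 TPM in B73 anthers and 21.3 and 19.2 TPM in ms28 anthers. Its interaction, germ cells minus anthers, was 5.24 in log2 units (SE 0.33, adjusted p = 0.00231 in limma). Zm00001d036272 fell in germ cells from 13.5 and 19.6 TPM to 0.516 and 0.668 TPM and read 17.3 and 14.8 TPM in B73 anthers and 13.8 and 10.4 TPM in ms28 anthers. Its interaction was -3.05 (SE 0.36, adjusted p = 0.00885 in limma). Both missed the threshold without ms28 germ cell replicate 1 (adjusted p = 0.0579 and 0.0642 in limma), and Zm00001d036272 also without replicate 2 (0.058).

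The interaction was called in 3009 features, 14.4% of those tested, with 2902 positive (13.9%) and 107 negative (0.512%). This number depended on the scaling and on single libraries. With each library centred it was 452, or 2.16%, of which 187 (0.895%) were positive and 265 (1.27%) negative, so the leading direction turned, and with quantile normalization it was 221 (150 and 71). Dropping replicate 1 of the B73 anthers left 1530 calls, and dropping replicate 2 left 4586. For the ms28 anthers the numbers were 212 and 479. Without replicate 1 of the B73 germ cells 1.89% of the tested features were called, and without replicate 2 of them 2017 features. Leaving out replicate 2 of the ms28 germ cells left 4. For the fit that lacked replicate 1 of the ms28 germ cells, the count by limma was 0, while 5251 features had an unadjusted p under 0.05.

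The only features with names were the miRNA loci, whose reads come from the precursor transcripts and not from the mature miRNAs. Of the 26 loci in the germ cell table, of 12 families, 23 passed the filter. Among these 4 rose and 1 fell, 21.7% of the loci beside 21.6% of all tested features, a share close to the background. The median log2 change of the 23 loci was 0.12, beside 0.06 for all tested features. The genotypes overlapped in 13 of the 23. Among all tested features, both ms28 libraries lay above both B73 libraries in 36.9% and below both in 29.3%, so overlap was less common there.

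Of the triggers of phasiRNAs, 3 MIR2118 loci and 2 MIR2275 loci were present. MIR2118g read 1.53 and 3.62 TPM in B73 and 10.0 and 6.28 TPM in ms28. It rose with a log2 change of 1.39 (SE 0.35, adjusted p = 0.0272 in limma), and missed the threshold without B73 replicate 1 (0.0784) or ms28 replicate 1 (0.184). MIR2118a read 0.375 and 1.39 TPM in B73 and 1.34 and 2.68 TPM in ms28, with overlapping genotypes and no call; without B73 replicate 2 it was called higher (adjusted p = 0.0498 in limma). MIR2118c read 2.93 and 3.15 TPM in B73 and 1.38 and 2.08 TPM in ms28, lower in both ms28 libraries and not called (adjusted p = 0.125 in limma). MIR2118g and MIR2118c thus had log2 changes of opposite sign, of which the first was called. MIR2275c, 1 of the 2 trigger loci of the longer class, was the most abundant miRNA locus. It read 221 and 456 TPM in B73 and 414 and 288 TPM in ms28, and its libraries of both genotypes interleaved. MIR2275b was low, at 0.614 and 2.12 TPM in B73 and 1.08 and 2.29 TPM in ms28, and was not called.

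Of the loci of nutrient responses, MIR399b read 0 and 3.79 TPM in B73 and 25.2 TPM in each ms28 library. The miR399 family is known from the phosphate starvation response. It rose with a log2 change of 3.58 (SE 0.60, adjusted p = 0.00625 in limma), and its size ran from 2.45 without B73 replicate 1 to 4.71 without B73 replicate 2. MIR399d of the same family was too low to be tested, at 0.443 and 3.00 TPM in B73 and 0 and 0.837 TPM in ms28. MIR395c, of a family that targets sulfate assimilation genes, read 0.624 and 0.555 TPM in B73 and 3.45 and 3.03 TPM in ms28. It rose with a log2 change of 1.41 (SE 0.23, adjusted p = 0.00541 in limma), a call that ended in the fit of all 8 libraries (0.0777). It passed the filter only through the ms28 libraries, where it was high; with no filter its adjusted p in limma was 0.00829.

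The loci of copper-related families were without a call on TPM as deposited, but several passed the threshold under other settings. MIR398a read 14.0 and 17.1 TPM in B73 and 9.04 and 8.83 TPM in ms28, lower in both ms28 libraries (adjusted p = 0.0625 in limma). It was called after centring (0.0451), after quantile normalization (0.0442) and without B73 replicate 1 (0.0494). MIR398b read 0.395 and 2.02 TPM in B73 and was listed at 0 in both ms28 libraries, too low to be tested. MIR408b and MIR528a differed as much between the B73 libraries as between genotypes: MIR408b read 11.1 and 52.1 TPM in B73 and 27.1 and 17.6 TPM in ms28. MIR528a read 2.26 and 8.88 TPM in B73 and 1.90 and 2.17 TPM in ms28. Without B73 replicate 1 both were called lower, with log2 changes of -1.22 and -1.70 (adjusted p = 0.0279 and 0.00768 in limma). Without B73 replicate 2 the values were 0.91 and -0.10, with no call.

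Among regulators of transcription factors and auxin response, the calls were MIR169o and MIR167c. MIR169o, of the family that targets NF-YA transcription factors, read 4.18 and 6.98 TPM in B73 and 19.1 and 10.4 TPM in ms28. It rose with a log2 change of 1.23 (SE 0.34, adjusted p = 0.0368 in limma). It missed the threshold in the fit of all 8 libraries (0.108), with no filter on low values (0.051), and without B73 replicate 1 (0.112) or ms28 replicate 1 (0.307). MIR169c pointed the other way, at 12.4 and 7.06 TPM in B73 and 5.05 and 3.50 TPM in ms28, just short of a call (adjusted p = 0.0547 in limma). It was called lower after centring (0.0423), after quantile normalization (0.0371), with the filter at 5 TPM (0.0462), with the replicate block (0.0223) and without B73 replicate 2 (0.02). MIR169j overlapped between the genotypes, from 1.47 to 3.57 TPM.

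MIR167c, whose family cleaves mRNAs of auxin response factors, read 1.85 and 1.35 TPM in B73 and was listed at 0 in both ms28 libraries. It is 1 of the 19 features above that were present in B73 alone, and was called lower; it passed the filter only through the B73 libraries, where it was high. It is the miRNA locus that the anther table does not list. MIR167d read 2.91 and 2.67 TPM in B73 and 1.84 and 2.24 TPM in ms28, and MIR167g 1.85 and 3.42 TPM against 5.67 and 2.67 TPM; neither was called.

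The 5 MIR159 loci, of a family that targets GAMYB factors of anther development, moved together from library to library. They ran from 53.1 to 81.0 TPM in B73 replicate 1, from 81.2 to 108 TPM in B73 replicate 2, from 92.9 to 125 TPM in ms28 replicate 1 and from 60.7 to 80.1 TPM in ms28 replicate 2. The genotypes overlapped and none was called. Reads that these near-identical copies may share leave the level of each uncertain. MIR171d, of a family that targets GRAS factors, read 3.25 and 8.08 TPM in B73 and 2.48 and 5.58 TPM in ms28. MIR171f was too low to be tested, at 0.212 and 1.58 TPM in B73 and 0 in both ms28 libraries. MIR168a, of the family that targets AGO1 transcripts, overlapped between genotypes, from 0.354 to 2.54 TPM.

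**Figure D4:**
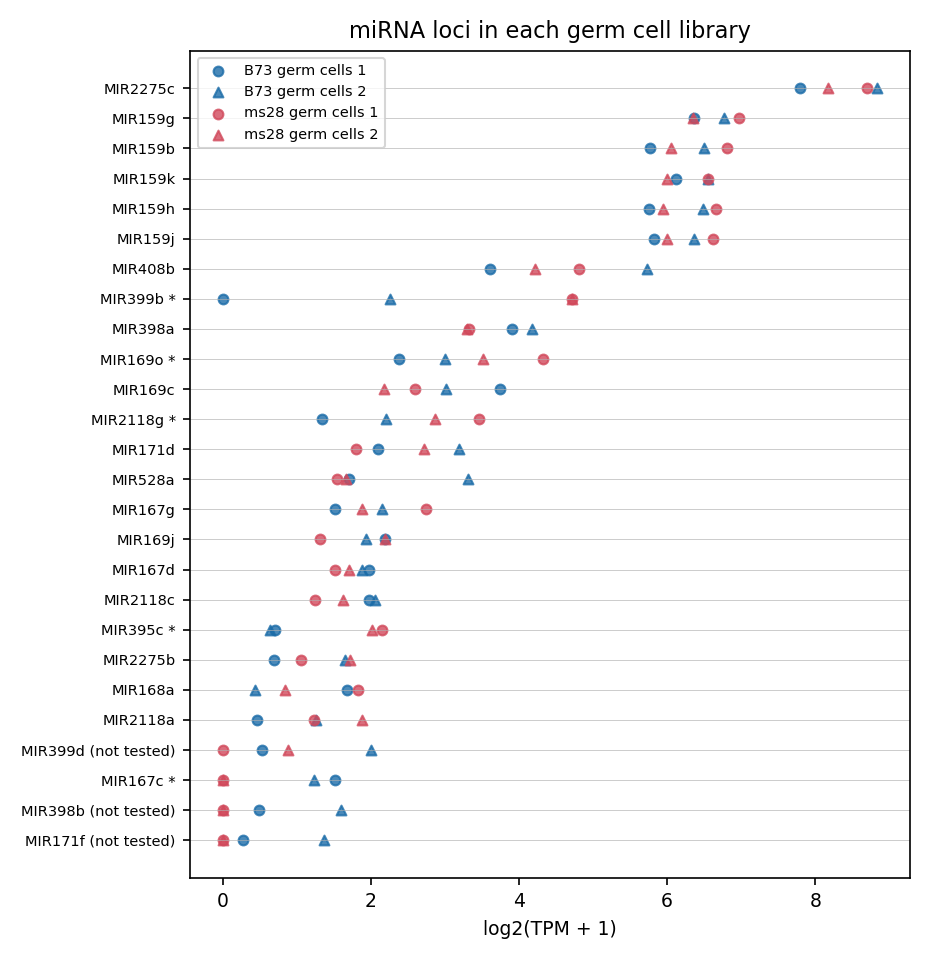
Level of the 26 miRNA loci of the germ cell table in each library, as log2(TPM + 1), ordered by their mean; blue is B73, red is ms28, circles are replicate 1 and triangles replicate 2. An asterisk marks the 5 called loci; MIR399b, MIR169o, MIR2118g and MIR395c have both red points to the right of both blue points, and MIR167c to the left.

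Calls were spread over all levels of expression. Tested features were ranked by mean level into 5 groups of 3768. In the lowest group (median 1.65 TPM), 17.9% rose and 7.06% fell. In the highest group (median 102 TPM), 10.8% rose and 9.02% fell. The excess of rises among low features did not hold under quantile normalization, where 10.6% of the lowest group rose and 12.8% fell. Low features also include those that passed the filter through 1 genotype alone. There were 760 at 1 TPM or more in both ms28 and in neither B73 library, of which 457 were called higher, and 327 of the opposite kind, of which 198 were called lower. Without these, 19.3% of 17753 features were called. Below the filter stood 1125 features at 1 TPM or more in a single library and 2821 in none.

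**Figure D5:**
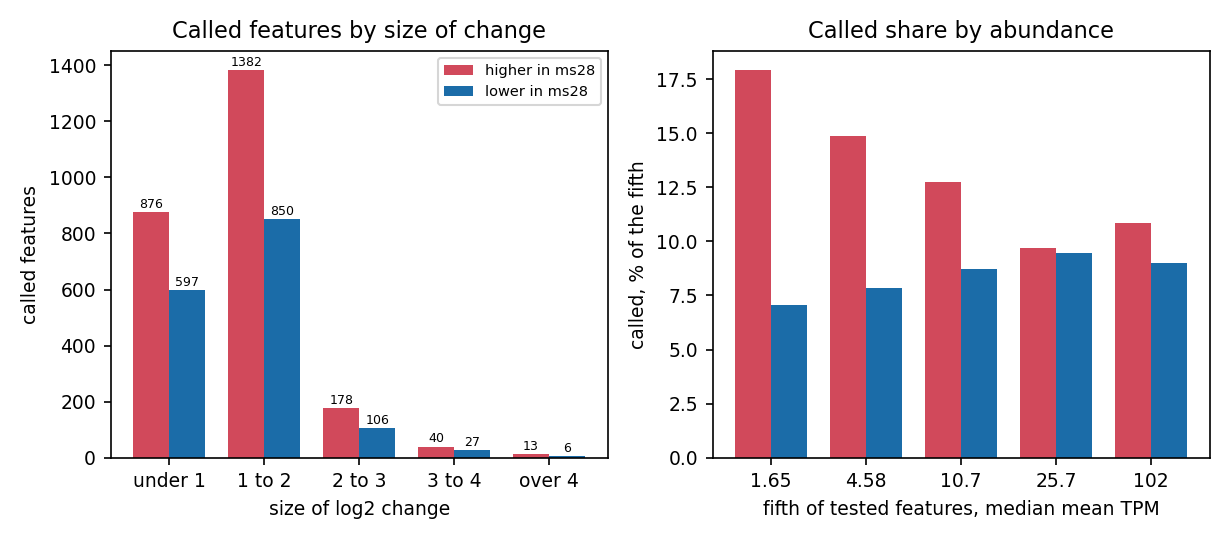
Left, number of called features by the size of their log2 change, higher in ms28 in red and lower in blue, with the number over each bar. Right, share of features called in each of 5 equal groups by mean expression, labelled by the group's median TPM; with TPM as deposited the red share falls from 17.9% in the lowest group to 10.8% in the highest.

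The abundant transcripts held calls in both directions. Among the 10 features with the highest mean TPM, 1 rose and 0 fell by limma, with log2 changes between -0.66 and 0.93. Among the 100 highest, 11 rose and 9 fell, 20 of 100 beside 21.6% of all tested features. These 100 held 21.6% of TPM in B73 and 20.5% in ms28 on average. The most abundant, Zm00001d044874, named for its level after the values were seen, read 17593 and 14595 TPM in B73 and 9458 and 10848 TPM in ms28. Both ms28 libraries were lower, and it was not called (log2 change -0.66, adjusted p = 0.0872 in limma).

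Of the 384 features that the anther table does not list, 109 passed the filter. They were low, with a median of 2.41 TPM in the higher genotype against 12.99 TPM for all tested features. Of the 109, 14 rose and 10 fell, 22% of them beside 21.6% of all tested features. Their log2 changes ran from -2.27 to 2.27 among the called. Zm00001d018568 was the only called feature with a mean of at least 10 TPM among 17 at that level. It read 108 and 94.4 TPM in B73 and 186 and 175 TPM in ms28, a log2 rise of 0.83 (SE 0.21, adjusted p = 0.0258 in limma), and missed the threshold without ms28 replicate 1 (0.218) or 2 (0.125).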

How the data were processed

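Libraries came from total RNA by a Smart-seq type method, per the labels' protocols (template switching, PCR preamplification, tagmentation) and sequenced in pairs. Such libraries do not mark strand, so overlapping antisense transcripts cannot be told apart. The tools named in the submitters' processing notes are HISAT2 2.2.1, featureCounts 2.0.1, Trimmomatic 0.33, DESeq2 and Cufflinks, with the build B73 RefGen_v4, without saying which made which table. The deposited tables name no unit; their values were taken as TPM because each deposited column summed to between 99.1 and 99.4% of the total that TPM has by definition. Columns were matched to samples by genotype and replicate in their header lines and by the table's name, with WT read as B73.

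Features that reached 1 TPM in 2 or more of the 4 germ cell libraries were tested with limma-trend 3.58.1 (R 4.3.3) on log2(TPM + 1), with no replicate block, two-sided, and called at an adjusted p under 0.05. A log2 change on this scale understates the change of low features. The interaction was fitted on the 8 prophase I libraries over features of both tables. The fit was also run on simulated data with planted changes. Its noise was independent between features and no change was planted in low features. That run therefore does not bear on the calls made here. All miRNA loci were reported. Of gene models, the rule named the 2 that rose and 2 that fell with the smallest adjusted p, non-overlapping genotypes and a mean of at least 10 TPM. It took the same from features absent from the anther table, where 1 qualified, and 1 per direction for the interaction. The reference gene table (Zm-B73-REFERENCE-NAM-5.0) matched 0 gene models and 25 of the 26 miRNA loci, so no coordinates or sequences are given. Members, lists and rules were chosen with earlier results of these data known. Summaries and plots used matplotlib 3.10.9, numpy 2.4.6 and pandas 2.3.3 in Python 3.11.15. Alternatives were other scalings, pseudocounts, filters, a block and left-out libraries.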

Additional observations from a re-analysis of the deposited data

Results flagged for a closer look

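Each result here had an interaction of genotype and sample type that was called on TPM as deposited. The interaction compares the difference of ms28 from B73 in isolated germ cells with that in whole anthers. Over all features tested for it, the median interaction was 0.561 as deposited and -0.138 with each library centred. Where centring removed a call, a difference between the responses of germ cells and whole anthers was not shown. As deposited, the TPM gave 3009 such features. Among gene models named by rule, Zm00001d002052 had an interaction of 5.24 and Zm00001d036272 one of -3.05 on the log2 scale, germ cells minus anthers. Among miRNA loci, the interactions were 4.34 for MIR399b, 3.70 for MIR171f, 1.13 for MIR167d and -3.89 for MIR399d. MIR171f and MIR399d were too low in germ cells to be tested there, so their interactions rest mostly on the anther values. MIR171f read 47 and 56.1 TPM in B73 anthers and 0 and 4.17 TPM in ms28 anthers. MIR399d read 11.4 and 9.19 TPM in B73 anthers and 121 and 71.3 TPM in ms28 anthers. MIR399b read 52.3 and 14.4 TPM in B73 anthers and 12.3 and 20.4 TPM in ms28 anthers. The interactions of MIR399b, MIR171f and MIR167d lost their call with centring (adjusted p = 0.0791, 0.103 and 0.499 in limma). They also lost it with quantile normalization (0.118, 0.12 and 0.44). That of MIR399d kept its call in both (0.0306 and 0.0292). A pseudocount of 0.1 ended the calls of MIR399b (0.0695) and MIR171f (0.275). The replicate block ended those of MIR399b (0.0549) and MIR167d (0.0998). The MIR399d call was lost with a pseudocount of 0.1 (0.0501 in limma), without ms28 anther replicate 1 (0.0742) and without ms28 germ cell replicate 1 (0.101) or 2 (0.0646).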

How the results depend on the processing

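For germ cells the number of calls stayed within 1.5 times of 4075 in the fit of 8 libraries (2995), with centring, quantile normalization, a pseudocount of 0.1, either other filter and the replicate block (4744), and ran from 909 to 4480 with 1 library left out. Same-numbered libraries did not deviate together (correlation -0.029 in germ cells over features), so the numbers are not taken as pairs. The interaction count was 452 with centring, 221 with quantile normalization and 675 with the replicate block, and ran from 0 to 4586 with 1 library left out; the cause was not tested.

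Leaving out 1 library turned the direction of 11 uncalled miRNA loci, whose log2 changes ran from -0.090 to 0.67 (MIR159b), -0.22 to 0.41 (MIR159g), -0.17 to 0.55 (MIR159h), -0.10 to 0.53 (MIR159j), -0.34 to 0.21 (MIR159k), -0.34 to 0.90 (MIR168a), -0.76 to 0.13 (MIR169j), -0.92 to 0.17 (MIR171d), -0.25 to 0.70 (MIR2275b), -0.40 to 0.64 (MIR2275c) and -1.22 to 0.91 (MIR408b). When 1 library is left out, the lone library of its group is assumed to vary like the others. No gene model or miRNA locus that was named and called changed direction under the alternatives run. Depth is unknown, so the lowest TPM at which a feature could be seen cannot be given.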
